A study of Mus musculus with 6 samples.

Results

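Recurrent intragenic H3K27ac regions are stretches of acetylated chromatin that lie inside protein-coding genes, away from the gene ends, in nuclei of mouse heart muscle cells. They were chosen by where peaks had been called. Overlapping peaks of 6 libraries on chromosomes 1 to 19 were merged into regions, and a region was kept if at least 2 of the 6 libraries had a peak in it, if it overlapped the body of a RefSeq protein-coding gene (mm10) and if it lay more than 1 kb from both ends of every such gene. This gave 25266 of 45032 recurrent regions, or 56.1%. Another 9161 lay within 1 kb of a gene end and 10605 lay between genes.

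The libraries were made by CUT&RUN, in which a nuclease tethered to an antibody releases the bound chromatin, with an antibody against histone H3 acetylated at lysine 27. FVB mice of 8 to 12 weeks of age gave the left ventricles, and nuclei were sorted with an antibody against PCM-1, a protein found around cardiomyocyte nuclei. One group of 3 libraries was wild type (WT), and the other group of 3, labelled HOM, carried a CRISPR deletion of both Nppa and Nppb, the neighbouring genes of the atrial and B-type natriuretic peptides. The study concerned the enhancers of that locus, and the comparison made here was WT against HOM for acetylation inside genes elsewhere. The growth protocol names Myh6-MerCreMer, nTnG and Sun1/sfGFP lines on the FVB/N background, and no label says whether these mice carried them. The labels give no ends of the deletion, no founder number and no word on whether each library is another mouse. P-values therefore measure the spread between these samples, and that spread may be technical.

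Acetylation of lysine 27 marks active promoters and enhancers. Many enhancers of a cell type sit in introns, and in cardiomyocytes these are bound by factors such as GATA4, MEF2, TEAD1 and the estrogen-related receptors. An acetylated stretch inside a gene may also be an alternative promoter of that gene, from which a shorter transcript starts.

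The lists differed in length, and one stood apart. WT replicates 1, 2 and 3 held 21057, 71295 and 104594 autosomal peaks, and HOM replicates 1, 2 and 3 held 47627, 1188 and 15052. The read depth is not given in the lists. HOM replicate 2 called 349 of the 25266 intragenic regions, or 1.38%. The WT libraries called 24.9%, 88.1% and 98.1%, HOM replicate 1 called 55.1% and HOM replicate 3 called 18.1%, so a region missing from a short list cannot be read as unacetylated. Peaks on the Y chromosome below 80 Mb numbered 111 in WT replicate 1 and 112 in HOM replicate 1, against 1 to 5 in the other 4 libraries. Without HOM replicate 2, 25259 intragenic regions remained recurrent. Without WT replicate 2 there were 16248.

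**Figure D1:**
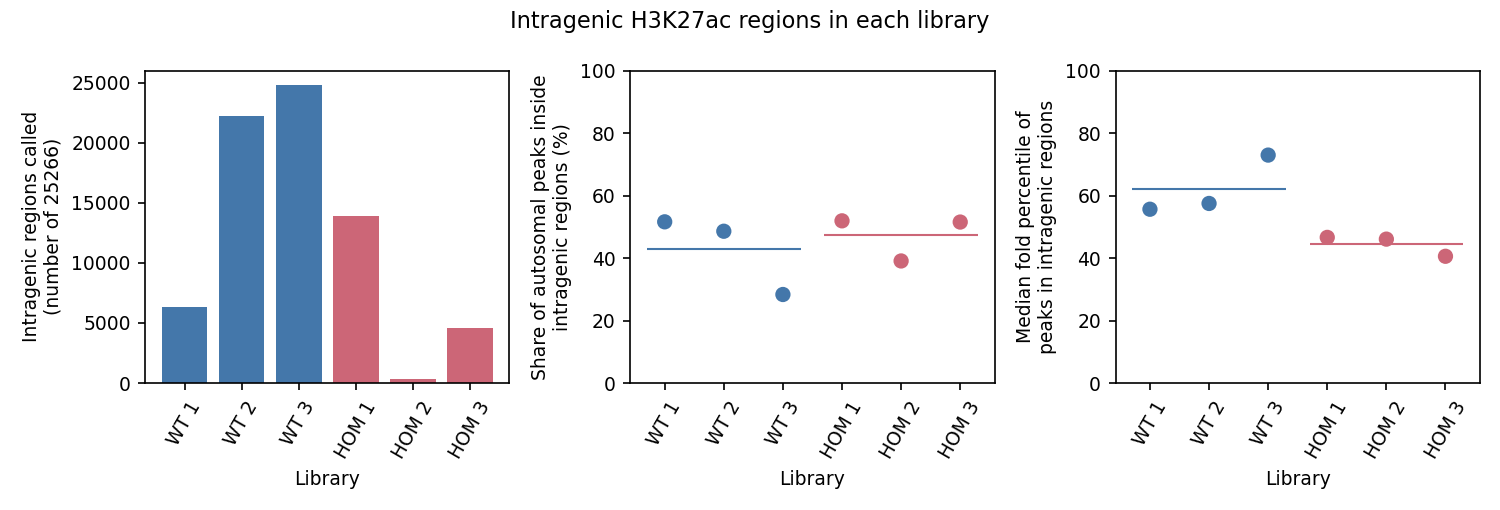
The left panel shows how many of the 25266 intragenic regions each library called, the middle panel the percent of its autosomal peaks that lay in them, and the right panel the median percentile of fold of those peaks. Bars and points are single libraries (WT blue, HOM red) and horizontal lines are group means of 3 libraries. The lowest count was 349 (HOM replicate 2), the highest 24778 (WT replicate 3), and the 3 HOM percentiles lay below the 3 WT percentiles.

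A small group of intragenic regions lay over an annotated internal start of their own host gene, that is, over the first base of another RefSeq transcript of that gene more than 1 kb from the gene's ends. There were 350 of these, 1.39% of all, in 317 hosts. Their promoter sequence shows what such an acetylated site looks like, and 7 are printed, chosen after their values were seen. They are the 4 with the highest mean percentile of fold among those called in at least 5 libraries, with the strongest peak taken and HOM replicate 2 left out, and the next 3 in genes of the heart lists described further on. Only starts whose whole promoter window lay within the region were considered, 1 per gene, which passed over Srf and Cacnb2 among the heart lists. Each is the 250 bases of the mm10 reference, from RefSeq, just before the internal start, written 5′ to 3′ in the direction of the gene. The reference is of another mouse strain than the FVB animals, so their own sequence may differ. Capitals mark matches, on either strand, to 5 motifs. The letters searched were AGATAA for the GATA factors, CTANNNNTAG for MEF2, GGAATG for TEAD, AAGGTCA for the estrogen-related receptors (ERR) and TGANTCA for AP-1.
Sgcd (chr11:47379326-47379575, minus strand): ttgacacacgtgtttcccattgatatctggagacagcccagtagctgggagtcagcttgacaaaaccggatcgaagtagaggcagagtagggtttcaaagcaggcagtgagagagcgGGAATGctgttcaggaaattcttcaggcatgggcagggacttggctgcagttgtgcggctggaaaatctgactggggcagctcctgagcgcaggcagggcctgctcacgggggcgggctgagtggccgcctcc
Lmna (chr3:88493313-88493562, minus strand): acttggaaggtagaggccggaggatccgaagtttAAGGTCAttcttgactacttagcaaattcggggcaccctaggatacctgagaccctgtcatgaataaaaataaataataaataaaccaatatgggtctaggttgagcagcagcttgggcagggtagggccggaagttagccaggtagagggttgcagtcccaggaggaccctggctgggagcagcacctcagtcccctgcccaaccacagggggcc
Mbnl1 (chr3:60500929-60501178, plus strand): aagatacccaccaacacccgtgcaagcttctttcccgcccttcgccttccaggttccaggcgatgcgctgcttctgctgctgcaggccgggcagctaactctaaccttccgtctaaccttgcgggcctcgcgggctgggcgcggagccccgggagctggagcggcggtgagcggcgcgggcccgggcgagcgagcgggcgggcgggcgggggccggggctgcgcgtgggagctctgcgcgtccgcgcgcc
Ablim1 (chr19:57274669-57274918, minus strand): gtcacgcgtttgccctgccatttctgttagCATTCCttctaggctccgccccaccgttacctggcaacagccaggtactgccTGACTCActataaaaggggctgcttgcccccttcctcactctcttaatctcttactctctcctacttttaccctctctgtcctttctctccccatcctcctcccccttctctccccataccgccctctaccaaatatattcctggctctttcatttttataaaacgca
Sorbs2 (chr8:45661743-45661992, plus strand): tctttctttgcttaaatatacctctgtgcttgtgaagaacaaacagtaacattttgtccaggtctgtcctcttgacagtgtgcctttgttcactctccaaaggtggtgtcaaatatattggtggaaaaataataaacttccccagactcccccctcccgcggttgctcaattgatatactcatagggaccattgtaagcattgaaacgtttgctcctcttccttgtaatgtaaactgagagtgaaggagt
Mef2c (chr13:83573357-83573606, plus strand): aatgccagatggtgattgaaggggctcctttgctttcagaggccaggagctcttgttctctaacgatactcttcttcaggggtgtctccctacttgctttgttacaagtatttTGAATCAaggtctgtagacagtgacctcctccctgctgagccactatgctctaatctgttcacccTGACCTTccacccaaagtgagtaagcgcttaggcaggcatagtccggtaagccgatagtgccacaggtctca
Ctnna3 (chr10:63457261-63457510, plus strand): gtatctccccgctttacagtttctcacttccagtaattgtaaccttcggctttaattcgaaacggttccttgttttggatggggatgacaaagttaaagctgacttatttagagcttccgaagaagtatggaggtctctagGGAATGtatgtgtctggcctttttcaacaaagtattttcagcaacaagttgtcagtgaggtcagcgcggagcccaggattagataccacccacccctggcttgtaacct

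The Lmna stretch, before a start of the gene of nuclear lamins A and C, held AAGGTCA. The Mef2c stretch, in the gene of a core muscle transcription factor, held matches to both AAGGTCA and TGANTCA. The Sgcd stretch, in the gene of delta-sarcoglycan of the dystrophin complex, held GGAATG, as did those of Ctnna3 (alpha-T-catenin of the intercalated disc) and Ablim1 (an actin-binding LIM protein). Ablim1 held TGANTCA as well. The stretches of Mbnl1, an RNA-splicing factor, and Sorbs2, a scaffold protein of the Z-disc, held none of the 5 motifs. Mbnl1 was the one of the 7 rich in CpG, with 33 of these dinucleotides against 3 to 9 in the others.

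The authors' fold enrichment, the height of a peak over the peak caller's background, was high in these regions in 5 libraries. In the Sgcd region WT replicates 1, 2 and 3 had a fold of 8.07, 12.5 and 17.0, while HOM replicates 1 and 3 had 9.81 and 7.57. For Lmna the fold was 7.66, 12.9 and 17.5 in WT against 10.6 and 7.57 in the same HOM replicates. Mef2c had 7.26, 12.9 and 13.9 in WT against 8.68 and 5.46. None of the 7 regions was called in HOM replicate 2. The order of the libraries was the same in the 3 regions, with WT replicate 3 highest and HOM replicate 3 lowest. Since fold differed between libraries in this way, its percentile among all autosomal peaks of the same list was used for the tests of fold. On that scale the 3 regions lay between 77.1 and 99.9.

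Among the 350 regions over an own start, 31.7% were called in 5 or 6 libraries, against 11.3% of the other 24916. Their median width was 1247 bp against 656 bp. The median percentile of a region's strongest peak was higher over own starts in 5 of 6 libraries. It was 71.8 against 55.6 in WT replicate 1, 79.8 against 57.5 in WT replicate 2 and 88.5 against 72.9 in WT replicate 3. It was 80.6 against 46.6 in HOM replicate 1 and 77.1 against 61.8 in HOM replicate 3. In HOM replicate 2 it was 14.2 against 46.0, with 9 such regions called. The mean difference was 11.9 ± 22.6 percentile points (SD, n = 6), which did not pass a two-sided exact sign-flip permutation test over the libraries (p = 0.281). Without HOM replicate 2 it was 20.7, with all 5 libraries higher and an exact permutation p of 0.0625, the smallest that 5 libraries can give. Among regions 2 to 5 kb wide the difference was -1.80 (exact permutation p = 1), with 4 of 6 libraries higher. Without HOM replicate 2, which called 4 such regions over own starts, it was 3.45 ± 2.92 (SD, n = 5), with 4 libraries higher, 1 equal and an exact permutation p of 0.125. Width and own starts moved together, and their separate parts in the result were not tested.

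Of 3708 internal starts, 386 lay in an intragenic region, or 10.4%, while these regions cover 2.81% of the sequence away from gene ends. The ERR motif AAGGTCA was present in the 250 bases before 22 of 241 different internal starts whose whole window lay in a region (9.13%) and in 12 of 110 in regions called in at least 5 libraries (10.9%). It was present in 3.97% of 3322 internal starts outside the regions and in 3.60% of 20085 promoter windows of all genes. TEAD's GGAATG was present in 15.8% of the starts in regions, 13% of those outside and 11.5% of all. The shares inside and outside regions were 8.71% and 9.18% for GATA, 3.73% and 3.67% for MEF2, and 7.47% and 6.86% for AP-1. These shares describe letters in a window, were not tested, and rest for the starts in regions on 9 to 38 matches per motif. The table of starts covered 79.6% of the autosomal protein-coding genes. The sequence around the other intragenic regions was not used here.

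Intragenic regions were found in 4963 genes, 27.1% of the 18328 autosomal protein-coding genes that have sequence more than 1 kb from every gene end. Of these hosts 1662 had 1 region and the median was 2. A minority held most: 651 hosts with 10 or more regions held 53.3% of all, and the 100 hosts with most held 18%. Hosts were longer than other genes, with a median of 52.2 kb against 15.7 kb, and the top 100 had a median of 234 kb. Across the 4963 hosts the number of regions rose with gene length, with a Spearman correlation of 0.41 as a description. Long genes differed widely, and 66 of 216 genes of 500 kb or longer (30.6%) hosted none and 28 hosted 20 or more.

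**Figure D2:**
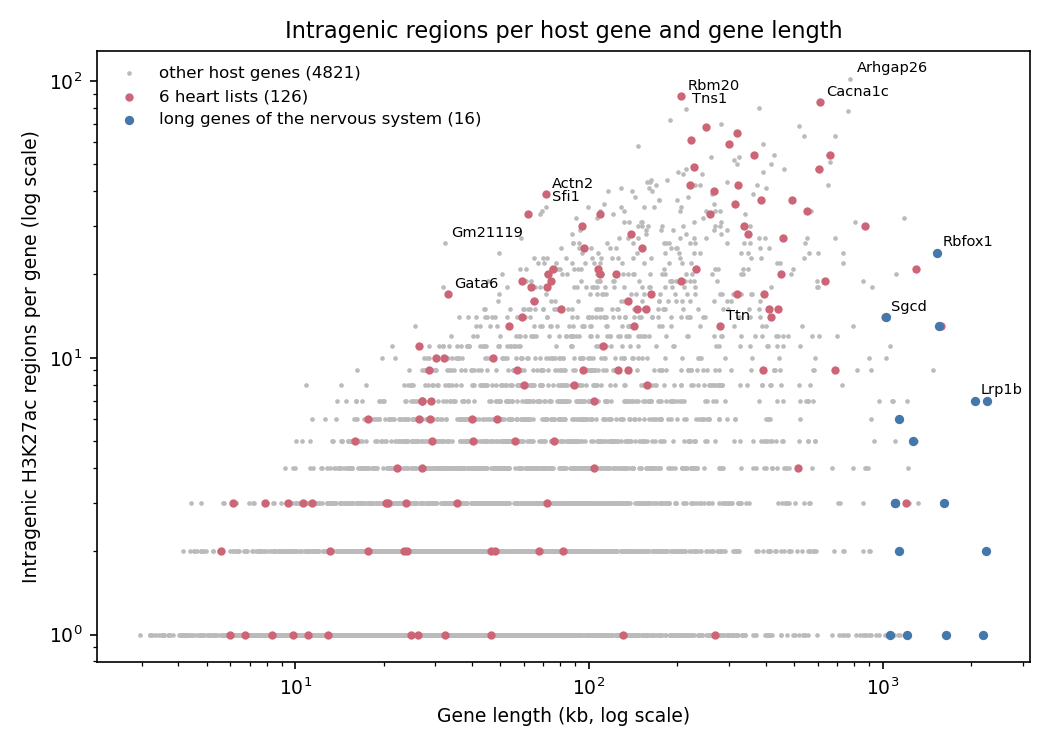
Each point is 1 host gene, with its length in kb on the horizontal log axis and its number of intragenic regions on the vertical log axis. Genes of the 6 heart lists (126 hosts, red) pooled to 8.50 regions per 100 kb of sequence away from ends, against 2.68 over all genes. Cacna1c is at 84 and Rbm20 at 88, while others lie low for their length, such as Prkg1 with 3 in 1201 kb and Ppp3ca with 1 in 268 kb. The 16 hosts among long nervous-system genes (blue) lie at the right with few regions, Lrp1b having 7.

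The host with most regions was Arhgap26, a GTPase-activating protein gene of 775 kb on chromosome 18, with 102. Of them, 31, 98 and 100 were called in WT and 50, 0 and 26 in HOM, each in the order of replicates 1, 2 and 3. Rbm20, whose protein directs the splicing of titin and other cardiac transcripts, followed with 88 regions in 206 kb. They numbered 24, 74 and 86 in WT, and 56, 0 and 18 in HOM, and together covered 62.8% of the gene. Cacna1c, the pore subunit of the L-type calcium channel, had 84 regions over 610 kb, of which WT called 14, 71 and 82, and HOM called 37, 0 and 8. In all 3 genes the counts followed the lengths of the lists.

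The next hosts were Msi2 (an RNA-binding protein) with 80 regions, Tns1 (tensin 1 of focal adhesions) with 79, Zbtb20 (a zinc-finger repressor) with 78, Cpeb3 (a translational regulator) with 72 and Ablim1 with 70. Pde4b, a cAMP phosphodiesterase, had 69, Camk2d, the main cardiac calcium/calmodulin kinase, had 68, and Sorbs2 had 65. Nfia (a transcription factor) and Ptprm (a receptor phosphatase) had 63 each, and Samd4 had 61. In Tns1 the regions covered 52.8% of the gene, while in Ptprm they covered 7.30% of 688 kb.

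Per length, another set of genes led. Among hosts with at least 5 regions, Gm21119 had 80.4 per 100 kb of gene and Kpna2, an importin gene, had 73.4. Then came 9530057J20Rik with 56.3, 1600014C10Rik with 55.7 and Inka2 with 55.4. Heart muscle genes stood among the 10 densest. Actn2, the alpha-actinin that cross-links Z-disc actin, had 54.7 per 100 kb, and Jph2, which ties the T-tubule to the sarcoplasmic reticulum, had 53.4. Gata6, a cardiac zinc-finger factor, had 51.3. The other 2 were Smim20 with 52.5 and Cdc42ep3 with 51.5. The calls in Actn2 and Gm21119 ran differently across libraries. Actn2 was called at 3, 33 and 38 of its 39 regions in WT, and at 21, 0 and 4 in HOM, with most calls in the 3 longest lists. Gm21119, on chromosome 8, was called at 22, 19 and 16 of its 26 regions in WT, and at 18, 3 and 9 in HOM, with the most calls in WT replicate 1 and not in the longest list.

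Regions of 1 host lay close together. Of 20600 gaps between neighbouring regions in the same gene, the median was 806 bp, 42.9% were within 500 bp and 75.3% within 5 kb. When peaks up to 500 bp apart were merged, 14958 regions were left in 4655 hosts.

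Genes of 6 heart lists hosted intragenic regions far more often than genes at large. Of 141 such genes with sequence away from ends, 126 were hosts (89.4%), beside the 27.1% of all genes, and among genes of 10 kb or longer the shares were 95.2% and 35.0%. The 2105 regions in these genes made up 8.33% of all intragenic regions, on 2.63% of the sequence. The lists were chosen with earlier results of these data known, so these shares are a description and were not tested. The share of called regions that lay in the 6 lists was 8.38%, 8.20% and 8.37% in WT replicates 1, 2 and 3. It was 8.64% and 8.25% in HOM replicates 1 and 3, and 4.58%, or 16 regions, in HOM replicate 2. The shares of the 5 longer lists lay within 0.5 points of each other.

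**Figure D3:**
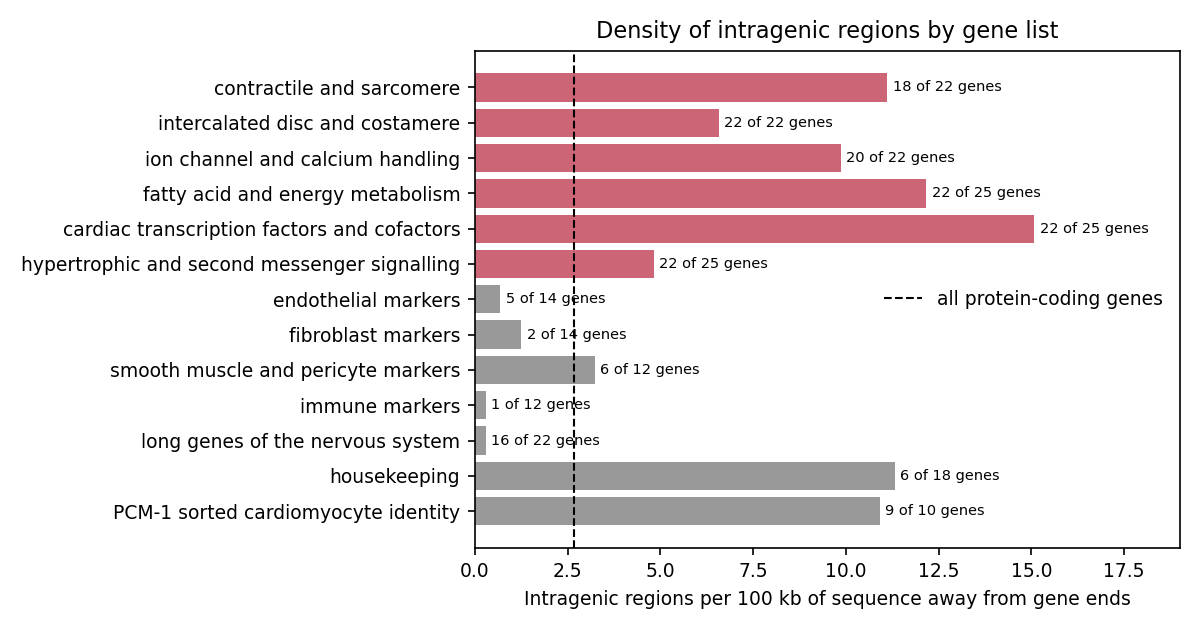
Bars give the number of intragenic regions per 100 kb of sequence more than 1 kb from gene ends for each gene list, pooled over its genes, with the number of host genes written beside each. The dashed line is the density over all protein-coding genes, 2.68 per 100 kb. The 6 heart lists (red) lie between 4.82 and 15.1, and the endothelial, fibroblast, immune and nervous-system lists lie below the line.

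Transcription factors and cofactors of the heart had the highest density, 15.1 regions per 100 kb of sequence away from ends, with 22 of 25 genes as hosts and 504 regions. Rbm20 was counted here, then came Tead1 (a factor of the Hippo pathway) with 49 and Prdm16 (a repressor needed in ventricular muscle) with 42. Gata4 had 20 regions, of which 8, 16 and 20 were called in WT and 15, 2 and 6 in HOM. Hand2, Nkx2-5 and Tead4 had none. Hand2 and Nkx2-5 are short genes, of 3.54 and 6.33 kb, which leave little sequence away from their ends, whereas Tead4 spans 73.7 kb.

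Genes of fatty acid and energy metabolism had 12.2 regions per 100 kb, with 22 of 25 as hosts. By number, some regulators led, while the regulator Esrra had 1 region. Ppargc1a and Ppargc1b, the PGC-1 coactivators of mitochondrial genes, had 54 and 33, and Esrrg, an estrogen-related receptor, had 48. Cd36, the fatty acid transporter, had 21. Of the enzymes, Acsl1 (acyl-CoA synthetase) had 16 and Lpl (lipoprotein lipase) 11, Acadvl, Ckm and Cpt2 had none, and Acadl (acyl-CoA dehydrogenase, 32.5 kb) and Pdk4 (which restrains pyruvate oxidation) had 1 each. The median over the list was 3 regions a gene. Per 100 kb of sequence away from ends the order differed, with 45.1 in Lpl, 30.8 in Ppargc1b and 8.19 in Ppargc1a.

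Contractile genes had 11.1 regions per 100 kb, with 18 of 22 as hosts. By number, those of the Z-disc and M-band led, with Actn2 at 39, Myom1 (myomesin) at 20, Ldb3 (the Z-disc protein Cypher) at 18 and Pdlim5 at 15. Ttn, the gene of titin, spans 279 kb and had 13, with 0, 11 and 13 called in WT and 3, 0 and 1 in HOM. Myosin and troponin genes had few: Myh6 had 1, Myh7 had 2, Myl2 and Myl3 had 3 each and Tnnt2 had 5. Mybpc3, Tnnc1, Tnni3 and Lmod2 had none. The last 4 span 18.4, 3.42, 4.41 and 7.64 kb. Per 100 kb of sequence away from ends the order differed. Myl3 had 72.8, Actn2 56.3, Tnnt2 35.8, Myl2 17.9, Myom1 16.5, Pdlim5 9.73 and Myh6 4.35.

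Ion channel and calcium-handling genes had 9.86 regions per 100 kb, with 20 of 22 as hosts. Beside Cacna1c and Camk2d, Slc8a1 (the sodium-calcium exchanger) had 54 and Cacnb2 (a calcium channel subunit) had 37. Ryr2, the calcium release channel, had 34 in 554 kb, with 3, 30 and 34 called in WT and 19, 0 and 4 in HOM. Jph2 had nearly as many, 33, in 61.8 kb. Hrc and Kcnip2 had none, although Kcnip2 spans 24.1 kb.

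All 22 genes of the intercalated disc and costamere with sequence away from ends were hosts, at 6.58 regions per 100 kb. Beside Sorbs2, Cdh2 (N-cadherin) had 42 and Tjp1 (ZO-1) had 21. The very long genes Sgcd (1018 kb) and Ctnna3 (1574 kb) had 14 and 13. Signalling genes had 4.82 regions per 100 kb, with 22 of 25 as hosts. Akap13 and Pde3a, which encode a kinase anchor and a phosphodiesterase, had 59 and 33, Hdac4 (a class IIa deacetylase) had 40 and Prkce (a protein kinase C) had 37. Adrb1, Nfatc4 and Pde10a had none, Pde10a at a length of 461 kb.

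Markers of other cell types in the ventricle had fewer regions per length than the heart lists. Hosts were 35.7% of the endothelial and 50% of the smooth muscle and pericyte markers. Among fibroblast and immune markers they were 14.3% and 8.33%, beside 27.1% of all genes. In the same order the densities were 0.68, 3.23, 1.24 and 0.294 per 100 kb, beside 2.68 over all genes. Of 14 endothelial markers 5 were hosts, with 11 regions in all and 0.68 per 100 kb. Erg had 4, Flt1 3, Mecom 2, and Kdr and Pecam1 1 each. The endothelial genes Cdh5, Egfl7, Emcn, Eng, Fabp4, Ptprb, Tek, Tie1 and Vwf had none. Of 14 fibroblast markers Gsn had 5 and Fbln1 2, and the collagen genes Col1a1, Col1a2 and Col3a1 with Abca8a, Dcn, Fap, Fn1, Lum, Mmp2, Pdgfra, Postn and Tcf21 had none. Of 12 immune markers Itgam had 2, while Ptprc, Csf1r, Adgre1, Cx3cr1, Mrc1, F13a1, Spi1, Itgax, Cd3e, Cd74 and Lyz2 had none. Of 12 smooth muscle and pericyte markers 6 were hosts at 3.23 per 100 kb, led by Abcc9 with 7 and Des with 2, both also expressed in cardiomyocytes. Acta2, Cspg4, Myh11 and Notch3 had 1 each, and Cnn1, Kcnj8, Mcam, Pdgfrb, Rgs5 and Tagln had none.

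The 10 cardiomyocyte identity genes, against which the labelled cell type was checked, had 187 regions in 9 genes, the exception being Mybpc3. The density of these genes was 10.9 per 100 kb. Cacna1c, Actn2 and Ryr2 held 84, 39 and 34 of the regions, while Myh6 had 1 and Pcm1 had 2. Housekeeping genes had 24 regions in 6 of 18 genes, with Rab7 at 10, Ywhaz at 7, and Gapdh and Polr2a at 2 each. Their density of 11.3 per 100 kb rested on 0.212 Mb of sequence, since the median housekeeping gene was 5.64 kb long. B2m, Eef1a1, Ppia, Sdha, Tbp and 7 other housekeeping genes had none. The 22 long genes of the nervous system, with a median length of 1359 kb, gave 93 regions on 32.2 Mb, or 0.289 per 100 kb. Rbfox1 had 24, Astn2 14, Pcdh15 13 and Lrp1b 7, and Dlg2, Dpp10, Grm7, Kcnip4 and Nrg3 were among those with none.

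Intragenic regions lay toward the annotated start of their host. Among 19750 regions with 1 host of known strand, 59.3% lay in the first 50% of the gene, which held 50.1% of the sequence away from ends. The per-library share was 57.9%, 59.4% and 59.4% in WT, against 58.3%, 61.4% and 58.3% in HOM. With each gene divided into 10 equal parts, the first held 1.41 times as many regions as its share of sequence and the last 0.638 times as many. The density fell from each part to the next. The share called in 5 or 6 libraries did not follow, at 9.07% in the first and 12.1% in the last. The nearest end of any protein-coding gene was a median of 21.1 kb away, and 25.3% of regions lay more than 50 kb from one.

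**Figure D4:**
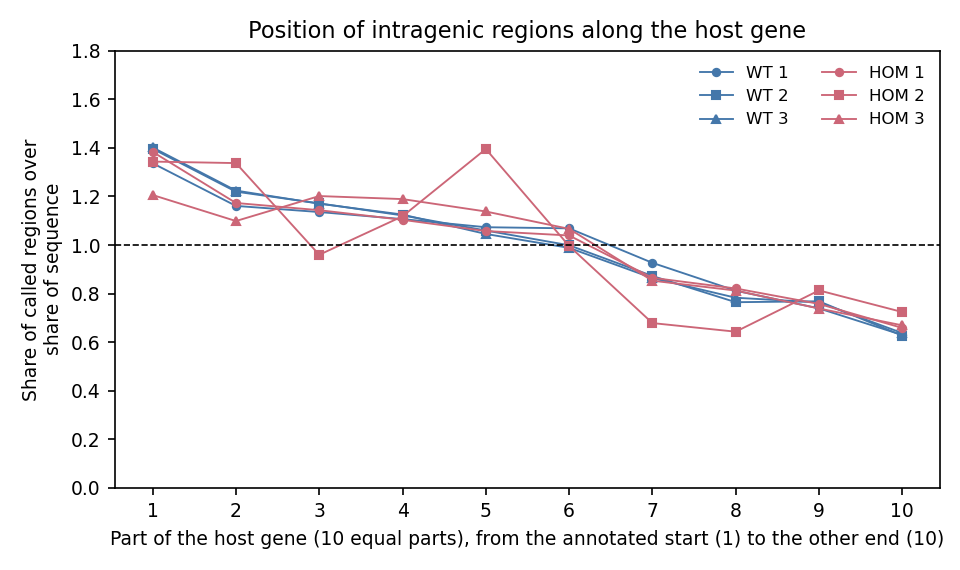
For each library, the share of its called intragenic regions in each of 10 equal parts of the host gene is divided by the share of sequence away from ends in that part, from the annotated start at 1 to the other end at 10. The dashed line marks equal shares. In 5 libraries the ratio falls from between 1.2 and 1.4 at the start to below 0.7 at the end, and HOM replicate 2, with 349 regions, scatters more.

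Width and the number of libraries rose together. The median intragenic region was 660 bp wide, with an interquartile range of 407 to 1209 bp. Regions called in 2, 3, 4, 5 and 6 libraries numbered 12865, 6318, 3148, 2690 and 245. Their median widths were 442, 815, 1376.5, 2513 and 2452 bp, and the medians of their mean percentile of fold were 44.1, 57.0, 66.4, 78.8 and 82.7. A merged region grows with every library that adds a peak, so width is in part fixed by the choice. Just outside the threshold, 43341 intragenic regions called in 1 library had a median width of 203 bp and a percentile of 33.3. Around the distance threshold, 1346 regions at 500 bp to 1 kb from an end were 604 bp wide with a percentile of 53.4, and 860 at 1 to 1.5 kb were 620 bp wide with a percentile of 52.7.

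Regions of 5 kb or wider numbered 432 (1.71%). The widest, of 19417 bp, was in Zbtb16, a zinc-finger repressor gene, with the others in Mbnl1 (18700 bp), Mylk4 (a myosin light chain kinase, 17302 bp), Garem1 (16990 bp) and Ppargc1a (16501 bp). The Mbnl1 region, which held the start printed earlier, had 20, 10 and 2 peaks in WT, and 17, 0 and 13 in HOM. The longest list therefore showed it as 2 broad peaks and the shorter lists as many narrow ones. The Zbtb16 region had 12, 21 and 1 peaks in WT and 21, 0 and 22 in HOM. A count of peaks thus does not compare between these libraries, and the number of regions called rose with list length as well.

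The 245 regions called in all 6 libraries included HOM replicate 2 by definition. They were divided by width after the values were seen. Of these, 135 were 2 kb or wider, with a median of 4320 bp. In the WT libraries their median fold was 6.05, 9.27 and 13.9, and in HOM 7.17, 5.78 and 5.88. Another 63 were under 700 bp, with a median of 371 bp, and 56 of them were a single peak in each library. Their median fold was 8.07, 8.06 and 9.41 in WT, against 8.30, 12.8 and 8.41 in HOM. The wide regions varied with the library, with a median ratio of highest to lowest fold of 2.47 over the 5 libraries without HOM replicate 2, while for the narrow ones it was 1.38. The 47 of intermediate width had a ratio of 1.55, and 10 of them were in Sfi1.

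**Figure D5:**
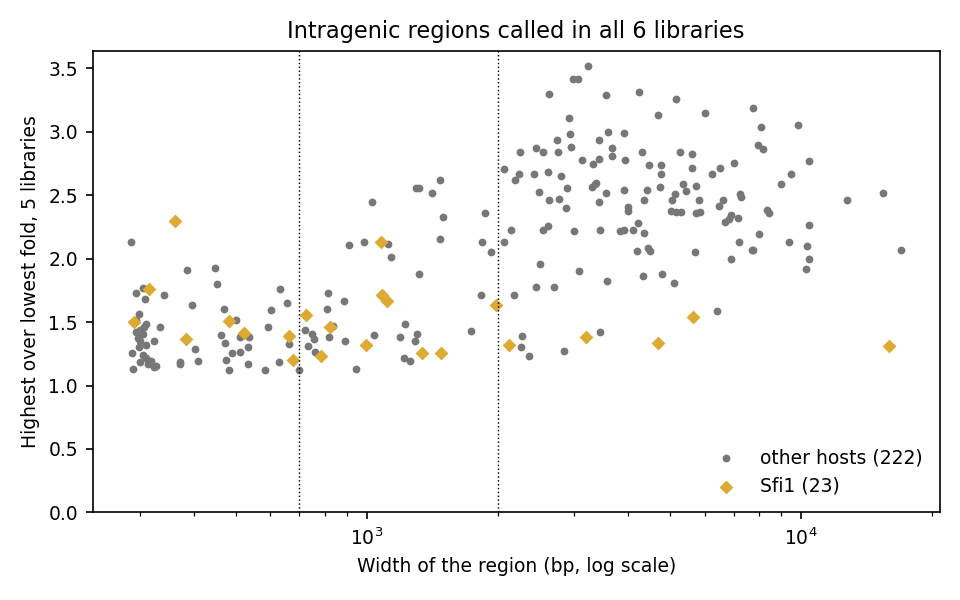
Each point is 1 of the 245 intragenic regions called in all 6 libraries, with its width on the horizontal log axis and, on the vertical axis, the highest over the lowest fold of its strongest peak across the 5 libraries other than HOM replicate 2. Dotted lines mark 700 bp and 2 kb, and diamonds are the 23 regions in Sfi1. Wide regions mostly lie above 2, narrow ones and those of Sfi1 mostly below.

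The 10 highest of the 245 by percentile of fold were all under 1 kb wide. In Chl1, a neural adhesion gene, a region of 474 bp had a fold of 68.6, 69.7 and 73.9 in WT, and 61.5, 71.9 and 69.3 in HOM. In Cdk5rap2, a centrosome gene, the fold was 29.0, 31.8 and 34.1 in WT, against 29.8, 43.6 and 31.9 in HOM. The Chl1 folds lay close together in all 6 libraries, and those of Cdk5rap2 did so in 5, with HOM replicate 2 the highest. The other 8 were in 2210408I21Rik, Kctd16, Aida, E030030I06Rik, Sos2, Litaf, Hsd11b1 and Smo. Sfi1, a centrin-binding gene of 71.5 kb, held 35 regions, 23 of them in all 6 libraries. Of 27 intragenic regions with a fold of 20 or more in any library, 23 were called in all 6. Leaving these 27 regions out left 25239 regions and 4956 hosts.

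Intragenic regions were compared with the recurrent regions at gene ends and between genes, which passed the same recurrence rule. They were sparser than regions at gene ends, at 26.8 per Mb against 123 per Mb of the respective sequence, and denser than the 7.51 per Mb between genes. Their median width, 660 bp, was close to the 655 and 646 bp of the other classes. A smaller part was called in 5 or 6 libraries, 11.6% against 14% and 15.5%. Within a library, the median percentile of fold of intragenic peaks differed from that at gene ends by -0.735 points on average, with a range of -14.8 to 15.1. It differed from that between genes by -6.44 points, with 2 libraries lower and 4 equal. Neither passed the two-sided exact sign-flip permutation test over 6 libraries (p = 1 and p = 0.5, both 1 after Benjamini-Hochberg adjustment over 4 tests). Fold takes few distinct values in a list, which is why medians tied. When means were used instead, intragenic peaks were 4.70 points lower than those between genes, and the exact permutation p was 0.031, below which 6 libraries cannot go. The use of means was added after the data were seen, and that p was not adjusted. All 6 libraries were lower, and the gap was widest in HOM replicate 2, at 46.3 against 59.3. Peak width differed by -3 bp from gene ends and by -0.833 bp from between genes (exact permutation p = 0.469 and 0.969), which are small beside median widths of 80 to 500 bp.

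The genotypes were then compared, with 1 value per library. Two-sided exact permutation over 3 and 3 libraries cannot give a p below 0.1. The share of autosomal peaks inside intragenic regions was 51.6%, 48.6% and 28.3% in WT, against 51.9%, 39.1% and 51.5% in HOM. Groups overlapped, with means of 42.8% ± 12.6 and 47.5% ± 7.30 (SD, n = 3 each), and the exact permutation p was 0.6. The lowest value came from WT replicate 3, in which 50.1% of peaks lay in no recurrent region.

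The median percentile of fold of intragenic peaks was 55.6, 57.5 and 72.9 in WT, against 46.6, 46.0 and 40.6 in HOM. The groups did not overlap, and HOM lay 17.6 points lower, at 44.4 ± 3.34 against 62.0 ± 9.51 (SD, n = 3 each). The exact permutation p was 0.1 and 0.3 after Benjamini-Hochberg adjustment over 3 tests. List length moved with this measure. Peaks in no recurrent region were left out of it, and their share differed between lists. It ran from 3.55% in WT replicate 1 to 50.1% in WT replicate 3, and from 2.03% to 7.44% in HOM. In WT replicate 3 the median percentile of the peaks left out was 33.3, so the recurrence rule itself raised the percentile of that library. Its part in the genotype difference was not tested. Over the 5 lists other than HOM replicate 2, each limited to the length of the shortest, the difference was -8.87 (exact permutation p = 0.3), and with the strongest peak of each region in place of every peak it was -5.57 (exact permutation p = 0.6). Between the libraries with Y chromosome peaks, WT replicate 1 and HOM replicate 1, it was -9.01. The median width of intragenic peaks was 244, 319 and 500 bp in WT, against 270, 80 and 233 bp in HOM, with an exact permutation p of 0.2 for a difference of -160 bp. Between the same 2 libraries with Y chromosome peaks the difference in width was 26.0 bp in the other direction.

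A pattern of 3 WT and 0 HOM libraries was seen in 625 intragenic regions, or 2.47%, beside 2.61% of all recurrent regions. In the reverse pattern there were 0, beside 0.00222% of all recurrent regions, which is 1 region. These shares are near the background. Another 10082 regions (39.9%) were in 2 WT libraries and no HOM library, beside 32.7% of regions at gene ends and 35.5% between genes. Of the 10082, 95.7% were in WT replicates 2 and 3, the longest lists. Both genotypes called 14545 intragenic regions (57.6%), beside 64.2% of regions at gene ends and 61.8% between genes. No WT library called 14 of the intragenic regions. Without HOM replicate 2 there were 631 regions in the 3 WT libraries alone and 13 in the 2 other HOM libraries alone, and without WT replicate 1 there were 10314 in WT alone. Over the 5 lists other than HOM replicate 2, at equal length, the counts were 264 in WT alone and 82 in HOM alone. With a library left out, 1 genotype needs calls in 3 libraries and the other in 2, so the 2 directions are unlike. The share over all recurrent regions was not computed in these settings, so these counts have no background beside them. The unequal lists and the genotype cannot be told apart in these counts.

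The 625 regions were spread over 525 genes, with at most 7 in 1 gene, Ablim1, and 5 in Arhgap26. Their median percentile of fold was 53.7, beside 54.6 for all intragenic regions. The 5 of them with the highest percentile were in Sec14l1, Stard13, Elmo1, Adcy5 (adenylyl cyclase 5) and Mbnl2. The Sec14l1 region, 1161 bp wide, had folds of 6.86, 6.85 and 10.3 in the WT libraries. The Adcy5 region had 6.05, 8.06 and 6.72. Both genes also held regions that HOM libraries called: of 25 regions in Adcy5, HOM replicate 1 called 16 and HOM replicate 3 called 6, and of 8 in Sec14l1, HOM replicate 1 called 4.

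Within 250 kb of the interval from Nppb to Nppa (chromosome 4, positions 147985786 to 148002074, mm10) there were 12 intragenic regions in 5 genes. WT replicates 1, 2 and 3 called 3, 9 and 12, and HOM replicates 1, 2 and 3 called 8, 0 and 3. Mfn2, of mitochondrial fusion, held 4, Clcn6 (a chloride transporter) held 2, and Mad2l2 and Zfp984 held 1 each. Of the 2 regions in Clcn6, the gene next to Nppa, HOM replicate 1 called both and WT replicate 3 called both. WT replicates 1 and 2 called neither. For the region at 148005432 to 148005968 the fold was 3.58 in WT replicate 3, 7.17 in HOM replicate 1 and 3.78 in HOM replicate 3. Differences at single regions were not tested.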

How the data were processed

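CUT&RUN for H3K27ac gave 6 lists of peaks, 1 per library. Tools named in the submitters' processing notes were BWA and MACS2, on the build mm10. Versions, settings and read depth are not given in the sources used here. Per the file headers' narrow peak layout, each deposited peak has a score, the fold (a ratio of its summit to background), a p-value as −log10 and a q-value likewise. Fold was used as deposited. The tests of fold used its percentile within each list. Fold itself was compared between lists only as a description, for named regions and in the ratios of highest to lowest fold. One cut on fold was also applied to all lists alike. These comparisons of fold between lists were not tested.

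Peaks on chromosomes 1 to 19 were merged where they overlapped. Gene bodies are those of RefSeq on GRCm38.p6, strands and internal starts from its promoter table. The gene lists (13, with 235 of 238 genes autosomal) and the choice of regions were made with earlier results of these data known. Genes were named by a rule: the 15 hosts with most regions, the 10 densest with at least 5, hosts of the 10 regions called in most libraries and of the 5 widest, in each list the 4 genes with most regions and those with none, hosts of up to 5 regions of 1 genotype only, and hosts within 250 kb of the locus. Other genes named, in the heart lists, by own starts or as Sfi1, were chosen after their values were seen. Some genes that the rule picked are not reported here. Genotypes were compared by two-sided exact permutation over 20 assignments, classes by exact sign flips over 64 patterns, with Benjamini-Hochberg adjustment. Merging, classes and tests were tested on simulated data. The replicate numbers did not pair the libraries. Motifs in whole regions were planned and not run, no genome being used here. Alternatives were stronger peaks, equal lists, other thresholds, each library left out and, added after the data were seen, means for medians and the removal of regions with a fold of 20 or more. The software was Python 3.11.15 with scipy 1.17.1, pandas 2.3.3, numpy 2.4.6 and, for figures, matplotlib 3.10.9.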

Additional observations from a re-analysis of the deposited data

How the results depend on the processing

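No result passed its test as reported, and the 2 that did under an alternative are named here. Of 230 recomputed values for the main results, 165 kept their direction and side of the threshold, or for counts stayed within 1.5 times, while 32 reversed direction, 31 counts or shares moved further and 2 passed the threshold. The reversals were of differences that had not passed a test. The 3 genotype differences could not pass in any setting, since their smallest possible p lies above the threshold. The same holds for sign flips over 5 libraries. For these, keeping the side of the threshold was fixed by the design and says nothing of stability. In the settings below, regions in WT or HOM alone are given without the share over all recurrent regions, which was not computed. With the stronger 50% of each list there were 13107 intragenic regions, 79.4% of heart-list genes as hosts, and differences from gene ends of 4.24 points and 21.8 bp and from between genes of 15.3 bp. At a −log10 q of at least 5 there were 9750 regions in 3136 hosts, 193 and 2 regions in WT or HOM alone, 75.2% of heart-list genes, and differences of 11.7 points and 33.2 bp from gene ends and 29.8 bp from between genes. With lists limited to the shortest, 1188 peaks, there were 707 regions, 508 hosts, 19 in WT alone and 27.7% of heart-list genes. Hosts among all genes then numbered 508 of 18328, so the 27.1% of all genes from the full lists does not apply here. Nor does it apply to the other heart-list shares of this paragraph. Hosts among all genes were 3136 of 18328 at that q and 2530 of 18328 over the 5 other lists. For the stronger 50% and for at least 3 libraries the share of all genes is not given. The differences were -4.24 points in share between genotypes, 7.37 points from gene ends, 309.5 bp from between genes and -2.51 points for own starts. Over the 5 other lists at 15052 peaks there were 6712 regions, 2530 hosts, 264 and 82 in WT or HOM alone, 68.8% of heart-list genes, and width differences of 71.1 and 72.0 bp from gene ends and between genes. With at least 3 libraries there were 12401 regions, 80.1% of heart-list genes and width differences of 9.58 and 10.2 bp. At 2 kb and at 5 kb from gene ends the difference from gene ends was 2.51 points, and at 5 kb 1.33 bp. Merging over 500 bp gave 14958 regions, 364 in WT alone, 75.2% of heart-list genes, a share difference of -1.42 points and a width difference from between genes of -5.58 bp (exact permutation p = 0.031). Genes of 10 kb or longer gave 95.2%. The strongest peak of each region gave 0.122 points from gene ends, and means gave 0.745 points and 6.0 bp from gene ends and -4.70 points from between genes (exact permutation p = 0.031). Without regions of fold 20 or more the width difference from between genes was 0.333 bp. In the libraries with Y chromosome peaks the width difference between genotypes was 26.0 bp.

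With each library left out in turn, the number of regions ran from 16248 to 25259, those in WT alone from 631 to 10314 and those in HOM alone from 0 to 13. The difference from gene ends ran from -3.90 to 3.01 points and from -5.40 to 9.40 bp, and that in width from between genes from -0.500 to 7.80 bp. The replicate block (paired by replicate number) gave exact permutation p-values of 0.75, 0.25 and 0.5. The differences were 4.66 points in share, -17.6 points in percentile and -160 bp. No call could change, since sign flips over 3 pairs cannot give a p below 0.25. Same-numbered libraries deviated with correlations of -0.373, -0.268 and 0.236, so the numbers were not treated as pairs. The cause of these shifts was not tested, and the lists give no depth.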

Other observations

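The X chromosome stood outside the choice of regions. By the same steps it held 308 intragenic regions in 94 genes, of which WT replicates 1, 2 and 3 called 21, 288 and 306 and HOM replicates 1, 2 and 3 called 96, 3 and 20. Tsc22d3, a glucocorticoid-induced gene, had 21, Fgf13, a regulator of cardiac sodium channels, had 18, Tbl1x had 15, Il13ra1 had 13, Tmem164 had 12 and Dmd, the dystrophin gene, had 10. These genes were chosen after their values were seen.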
